A study of Mus musculus with 20 samples.

Results

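The genes described here are the 10 G protein gamma subunits Gng2, Gng3, Gng4, Gng5, Gng7, Gng8, Gng10, Gng11, Gng12 and Gng13. They were taken by symbol from the deposited table of 51789 genes, where each symbol stands on a single row. The family was chosen by the measured level of Gng13, which is far higher in the nucleus pulposus (NP, the soft core of the intervertebral disc) than in the annulus fibrosus (AF, its outer fibrous ring). All 20 libraries came from BL6 mice that were 24 months old and had received a weekly intraperitoneal injection for 6 months from the age of 18 months. There were 4 groups of 5 libraries: NP and AF of mice given DMSO alone (vehicle), and NP and AF of mice given MDL-800, a small molecule that activates the deacylase SIRT6, dissolved in DMSO. There was no group without injections, so every library carries DMSO. A library's number is the one in its title. Nothing in the labels says that each library came from its own animal, so every p-value measures the spread between libraries only.

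A G protein is a heterotrimer of an alpha, a beta and a gamma subunit that carries signals from receptors in the cell membrane. The gamma subunit is a small protein that holds a beta subunit permanently, and it anchors the pair to the membrane by a prenyl lipid on its end. When a receptor is activated the alpha subunit separates, and the beta-gamma pair acts on its own targets, among them potassium channels, phospholipase C beta, adenylyl cyclases and a phosphoinositide 3-kinase. Members of the family differ in where they are made. Gng2, Gng5, Gng10 and Gng12 are found in many tissues, Gng3 and Gng4 are known from neurons, Gng7 from the striatum, Gng8 from olfactory and vomeronasal neurons, and Gng13 from taste cells, olfactory neurons and the ON bipolar cells of the retina.

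Gng13 lies on chromosome 17 of the mouse build GRCm38, from 25717171 to 25719406 on the forward strand, and GENCODE M21 gives it 5 distinct exons in 2 transcripts. RefSeq on GRCm38.p6 lists 2 start sites for it. The bases upstream of both are shown because Gng13 is the member whose level differed most between the compartments. They lie outside the exons of Gng13, and the second stretch is in its first intron. Capitals mark every match, on either strand, to 6 short motifs: the GC box GGGCGG, the TATA box TATAAA, the CCAAT box CCAAT, the hypoxia response core ACGTG, the T-box motif TCACACC and the SOX core ACAAT.
Gng13 first start site, chr17:25716922-25717170, forward strand, 5′ to 3′: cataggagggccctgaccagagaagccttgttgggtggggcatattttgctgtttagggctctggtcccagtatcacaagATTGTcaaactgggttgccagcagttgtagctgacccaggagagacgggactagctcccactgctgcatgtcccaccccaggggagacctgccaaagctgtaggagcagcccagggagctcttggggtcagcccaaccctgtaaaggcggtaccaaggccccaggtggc
Gng13 second start site, chr17:25717278-25717527, forward strand, 5′ to 3′: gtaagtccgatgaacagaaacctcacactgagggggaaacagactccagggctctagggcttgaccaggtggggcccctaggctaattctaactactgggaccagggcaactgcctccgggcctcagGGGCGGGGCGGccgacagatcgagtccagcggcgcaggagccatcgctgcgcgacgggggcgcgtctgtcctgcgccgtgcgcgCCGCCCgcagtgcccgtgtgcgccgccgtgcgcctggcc

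The first stretch holds 1 SOX core and no match to the other 5 motifs. The second holds 3 GC boxes, of which a pair overlaps by 1 base. Among the 250 bases upstream of 27025 RefSeq genes, 28.3% hold a SOX core and 32.9% a GC box. The other motifs stand in 13% (TATA box), 34.5% (CCAAT box), 16.6% (hypoxia response core) and 3.31% (T-box motif). GC content was 58.8% in the 250 bases before the first start and 69.2% before the second, against a median of 52% for all genes. Of the 10 members, 9 matched a RefSeq promoter, with 13 start sites between them. The T-box motif stood before 1 start of Gng4 and before Gng8. GC boxes stood before at least 1 start of Gng4, Gng5, Gng7, Gng8, Gng10, Gng12 and Gng13, and Gng2 had none of the 6 motifs. A match is only a run of letters, and no factor binding was measured.

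Values are FPKM (fragments per kilobase of transcript, relative to the mapped fragments of the library), scaled here so that typical genes match between libraries. They are per length and can be compared between genes. Depth is not given with the table; from the spacing of low values it was estimated at 12.9 to 21.9 M fragments (M, a megafragment), with a median of 19.8 M. A single fragment is worth 0.076 to 0.14 FPKM for Gng13, the shortest member at 773 exonic bases, and 0.01 to 0.017 for Gng12, the longest at 4727. The summed level of 10 NP markers was 25619 to 32854 in NP and 2495 to 15089 in AF, and the carbonic anhydrase Car3 alone made up 69.7% to 78.5% of it in NP and 55.7% to 74.7% in AF. Brachyury (T), the notochord transcription factor, was 1193 to 2328 in NP and 113 to 624 in AF. The markers Noto and Car12 stayed at or under 0.155 FPKM in NP, and Car12 was higher in AF. The summed level of 8 AF markers was 786 to 1565 in NP and 1689 to 5613 in AF. Not all of them marked AF. Under MDL-800 the log2 difference of NP minus AF was 0.59 for Fmod and -0.30 for Scx, both at an adjusted limma p above 0.05. It ran from -1.41 (Mkx) to -5.97 (Lum) for the rest. AF libraries also held more transcript of blood and vessel cells: 7 neutrophil markers summed to 5826 to 31504 in AF and 180.5 to 2972 in NP, and 6 endothelial markers to 45.6 to 111 in AF and 1.69 to 8.55 in NP. The same held for bone, where 7 markers, with Col1a1 shared with the AF list, summed to 703 to 3204 in AF and 23.4 to 275 in NP. For skeletal muscle 6 markers summed to 502 to 6013 in AF and 5.27 to 811 in NP, ranges that overlapped. In bulk tissue, fewer cells of a type and less RNA per cell cannot be told apart.

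Most gamma subunit transcript in the disc came from 3 genes. Gng5, Gng2 and Gng12 together made up 84.7% ± 2.95 (SD, n = 5) of the family's summed FPKM in NP vehicle and 77.8% ± 1.82 (SD, n = 5) in AF vehicle. The whole family summed to 739.7 ± 53.9 FPKM (SD, n = 5) in NP vehicle and 441.7 ± 68.7 (SD, n = 5) in AF vehicle, and the ranges of 672.9 to 797 and 348.9 to 540.1 did not overlap. Gng5 was the most abundant member in all 4 groups by mean, at 31.3% ± 5.21 of the family in NP vehicle and 45.1% ± 5.93 in AF vehicle. In NP vehicle its values overlapped those of Gng2, and those of Gng2 overlapped those of Gng12. In AF vehicle Gng5 stood above every value of Gng12, which came next.

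**Figure D1:**
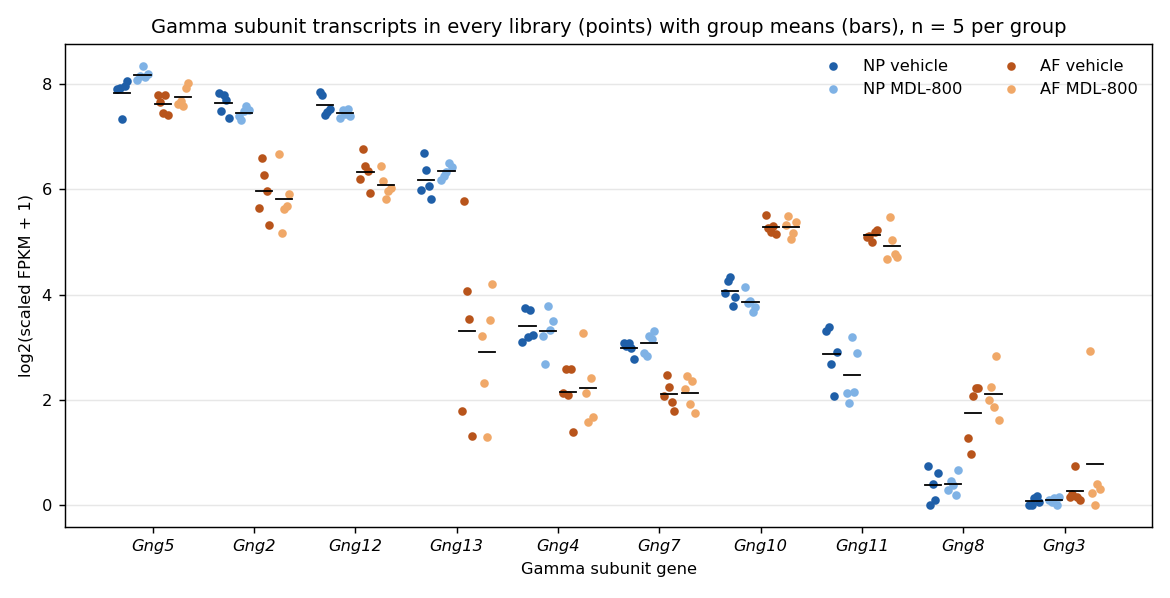
Level of each gamma subunit gene on the log2(scaled FPKM + 1) scale (vertical axis) in each of 20 libraries (points, coloured by group) with the mean of each group of 5 (black bars). Gng13 ranks below Gng5, Gng2 and Gng12 in NP, and in AF its points run from 1.46 to 53.7 FPKM.

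After these 3 genes the order of the members differed between the compartments. In NP vehicle Gng13 came next at 73.5 ± 18.6 FPKM (SD, n = 5), below every Gng12 value and above every Gng10 value. Gng10 followed at 16.0 ± 2.68, Gng4 at 9.71 ± 2.32, and Gng7 and Gng11 overlapped at 6.95 ± 0.637 and 6.68 ± 2.56. Gng8 at 0.316 ± 0.288 and Gng3 at 0.0518 ± 0.0568 overlapped at the bottom. In AF vehicle the next places were held by Gng10 at 38.1 ± 3.92 and Gng11 at 33.98 ± 2.16, which overlapped. Gng13 came after them at 16.8 ± 21.4, and its values overlapped those of Gng11 above and Gng4 below. Gng13 made up 9.94% ± 2.40 of the family in NP vehicle and 3.38% ± 3.90 in AF vehicle. Under MDL-800 its share was 10.6% ± 0.645 in NP and 1.83% ± 1.28 in AF.

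**Figure D2:**
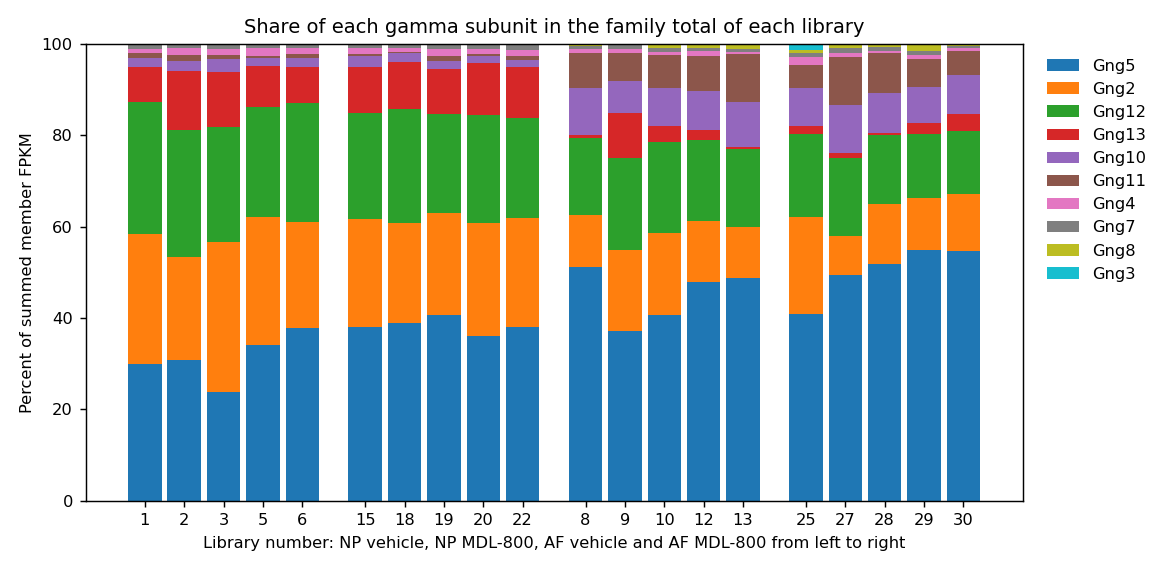
Percent of the family's summed FPKM (vertical axis) taken by each member (colours) in each library (bars, numbered as in the titles, in 4 blocks by group). Gng13 takes 7.79% to 12.9% in NP vehicle, and in AF vehicle it takes 9.94% in library 9 and far less elsewhere.

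The comparison of NP with AF asks which gamma subunits mark the core or the ring. In vehicle mice it is the comparison for which the family was picked, so it is given as a description without a test. Differences are on the log2(scaled FPKM + 1) scale, which understates those of low genes. Of the 9 members with 1 FPKM or more in at least 5 libraries, 8 had groups of 5 that did not overlap, 5 of them higher in NP and 3 lower. Over all 16383 genes tested, groups did not overlap for 41% (15.1% higher and 25.9% lower). The members' median difference was 0.88, and without Gng13, for which the family was picked, it was 0.55, with 7 of 8 groups apart. The median of all genes was -0.08. Gng3 was the member that did not reach the filter. Gng8 reached it through AF alone, where 9 of 10 libraries were at 1 FPKM or more, so a lower level in NP follows in part from the filter, and Gng8 is given below without a test.

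Under MDL-800 the same comparison rests on 10 other libraries, and there the members other than Gng13 were tested. With limma's moderated test and Benjamini-Hochberg adjustment over all genes, the 7 other members that reached the filter in both compartments all passed an adjusted p under 0.05, 5 higher and 2 lower in NP. That has to be read against 62.8% of all genes called (25.6% higher and 37.2% lower). The split over all genes depends on the scaling: 4188 were higher and 6102 lower here, 5611 and 5043 with upper-quartile scaling, 6919 and 4290 with quantile normalization, and 5105 and 5429 with the GC trend removed. Quantile normalization moved the median difference of all genes from -0.08 to 0.21. Each of the 9 members kept its direction between NP and AF under these scalings. Vehicle and MDL-800 mice share no library, and each comparison keeps its own values.

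**Figure D3:**
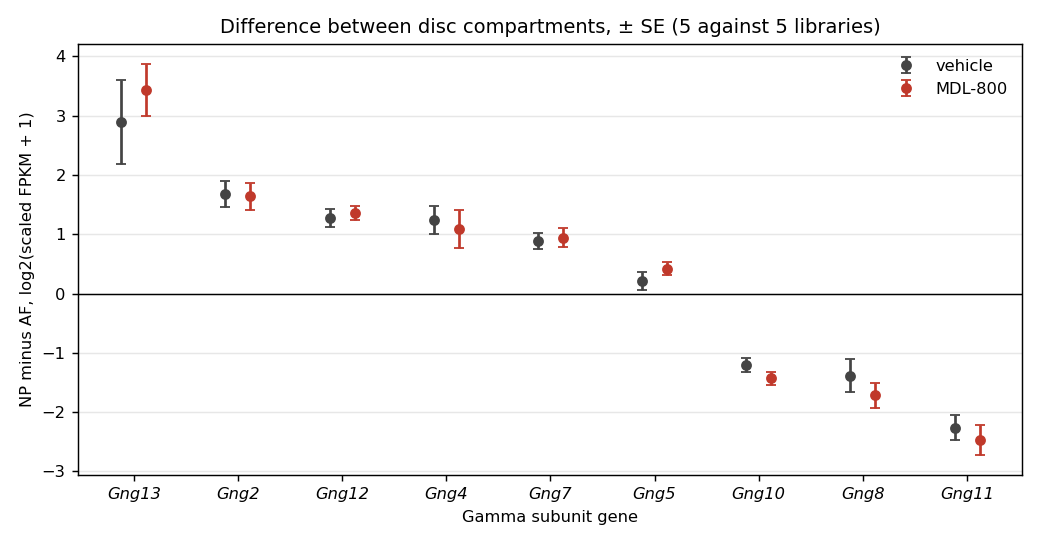
NP minus AF on the log2(scaled FPKM + 1) scale (vertical axis) for 9 gamma subunits in vehicle (grey) and MDL-800 (red) libraries, with the SE of each difference as the bar. Gng13 is highest at 2.89 and 3.43, Gng11 lowest at -2.26 and -2.47.

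Gng13, the gamma subunit of taste and olfactory signalling, was the most different member. In libraries 1, 2, 3, 5 and 6 of NP vehicle it stood at 62.1, 102, 81.4, 66.2 and 55.6 FPKM. In libraries 8, 9, 10, 12 and 13 of AF vehicle it stood at 2.47, 53.7, 15.8, 10.7 and 1.48. Library 9 of AF was nearly as high as the lowest NP library, and the other AF libraries were at 15.8 or less. The difference was 2.89 (SE 0.71) on the log2 scale, and it was 3.51 without AF vehicle library 9. Under MDL-800, NP libraries 15, 18, 19, 20 and 22 stood at 71.8, 75.6, 79.6, 89.5 and 84.9 FPKM. AF libraries 25, 27, 28, 29 and 30 stood at 8.24, 3.96, 1.46, 10.4 and 17.4. No AF library came near NP there, and the difference was 3.43 (SE 0.44). Neither difference of Gng13 was tested, because the gene was chosen for it.

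Gng13 varied more between AF libraries than between NP libraries, and in AF it was high where the NP marker sum was high. AF vehicle library 9 had an NP marker sum of 15089, against 2495 to 7513 in the other 9 AF libraries. In that library T stood at 624 FPKM, the keratin Krt19 at 725 and Car3 at 10912. Over the 10 AF libraries the log2 level of Gng13 followed the log2 marker sum with r = 0.95 and rho = 0.78, and without the 2 libraries farthest from the median sum r was 0.90. Over the 10 NP libraries r was 0.74 and rho 0.72, with r = 0.76 without the 2 farthest. Because Car3 dominates the sum, it was also left out, a choice made after seeing the data. Without Car3 the sum gave r = 0.78 and rho = 0.66 in AF (r = 0.68 without the 2 farthest), and r = 0.31 and rho = 0.21 in NP (r = 0.05 without the 2 farthest). Taken singly in NP, r was 0.82 for Car3, 0.55 for Noto, 0.50 for Cd24a, 0.35 for Krt8 and 0.20 for Shh. It was 0.10 for Krt18, 0.08 for T, 0.03 for Krt19, -0.38 for Car12 and -0.52 for Foxa2. Without the 2 farthest, Car3 gave 0.67, Krt19 0.69 and Cd24a -0.04. In NP the relation of the sum was mainly that of Car3. In AF r ran from 0.61 (Krt18) to 0.98 (Car3), apart from Foxa2 at -0.27, Noto at -0.38 and Car12 at -0.68. Without the 2 farthest the AF range was 0.27 (Cd24a) to 0.96 (Car3), with Shh at 0.44 and Krt18 at 0.45. Outside it were Noto at 0.17, Foxa2 at -0.40 and Car12 at -0.56. All are descriptions, over libraries that share 2 treatments and differ in depth and in blood cell content. In NP, Gng13 was lower where neutrophil markers were higher (r = -0.73, rho = -0.65, and r = -0.54 without the 2 farthest). The part of NP or blood cells in the Gng13 values was not tested.

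**Figure D4:**
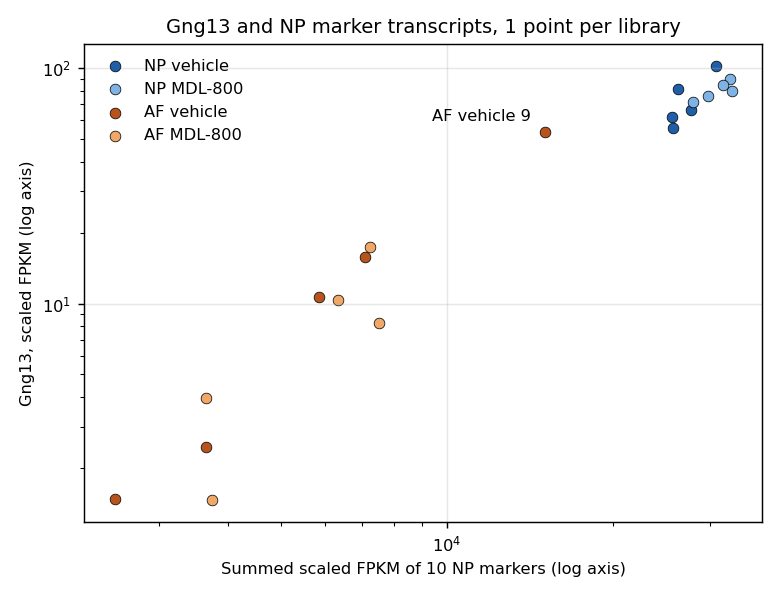
Gng13 in scaled FPKM (vertical log axis) against the summed scaled FPKM of 10 NP markers (horizontal log axis), of which Car3 is 55.7% or more in every library, 1 point per library, coloured by group. AF vehicle library 9, at 53.7 and 15089, lies between the other AF libraries and the NP libraries.

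The genes most like Gng13 were ranked by the smaller of 2 correlations, over the 10 NP and over the 10 AF libraries, among 9955 protein-coding genes with a mean of 5 FPKM or more. Car3, the muscle and fat carbonic anhydrase that is also very abundant in NP, came first with r = 0.82 in NP and 0.98 in AF. This is the gene that makes up most of the NP marker sum, so it is no separate observation. It stood at 20344 FPKM on average in NP vehicle and 4794 in AF vehicle. Terf2ip followed with 0.76 and 0.77, Tspyl1 with 0.75 and 0.79, Nap1l1 with 0.75 and 0.92, and Ndufb11 with 0.75 and 0.76. Ndufb11 differed little between the compartments in level, at 73.2 FPKM in NP vehicle and 67.1 in AF vehicle. Among the members, Gng12 and Gng2 followed Gng13 in AF with r = 0.73 each, but not in NP, where r was 0.02 and -0.04.

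The genes around Gng13 had other patterns or smaller differences. Chtf18, a DNA replication factor on the opposite strand, covers 399 of the 773 exonic bases of Gng13, or 51.6%. Chtf18 stood at 0.749 to 2.79 FPKM in NP vehicle and 1.85 to 5.92 in AF vehicle, ranges that overlapped. The medians were 1.22 and 3.63. The part of Chtf18 reads in the Gng13 values was not tested. The libraries were stranded, but whether strand was used in counting is not given in the sources used here. The nearest gene upstream, Lmf1, lies 54345 bases away and stood at 9.67 to 13.9 FPKM in NP vehicle and 6.18 to 9.91 in AF vehicle. Rpusd1, 8264 bases downstream, overlapped between the compartments at 4.57 to 11.8 and 2.80 to 7.08. Under MDL-800 limma gave Lmf1 a difference of 0.59 (SE 0.13, adjusted p = 0.0023), Rpusd1 one of 0.92 (SE 0.17, adjusted p = 0.00061) and Chtf18 one of -1.30 (SE 0.24, adjusted p = 0.00071).

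Gng2, which pairs with many beta and alpha subunits across tissues, was higher in NP. It stood at 226, 178, 221, 206 and 164 FPKM in libraries 1, 2, 3, 5 and 6 of NP vehicle and at 49.1, 95.9, 76.8, 61.4 and 38.9 in libraries 8, 9, 10, 12 and 13 of AF vehicle. The groups were far apart, and AF library 9 was again the highest of its group. The difference was 1.67 (SE 0.22) in vehicle. Under MDL-800 the ranges were 158 to 192 in NP and 35.2 to 102 in AF, and the difference was 1.64 (SE 0.23, limma adjusted p = 0.00010). AF library 25 stood at 102, and the rest of that group at 59.6 or less. Gng12 gave much the same picture, at 169.9 to 229 FPKM in NP vehicle and 59.8 to 108 in AF vehicle. Its difference was 1.27 (SE 0.16) in vehicle and 1.36 (SE 0.11, limma adjusted p = 4.07e-06) under MDL-800. The antisense gene Gm36816 overlaps Gng12 over a span of 19230 bases. It stood at 2.98 to 16.2 FPKM in NP vehicle and 2.11 to 10.6 in AF vehicle. Under MDL-800 it stood at 25.0 to 33.4 in NP and 1.74 to 15.3 in AF. Its part in the Gng12 values was not tested.

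Gng5 was the member with the least difference between the compartments. In vehicle it stood at 239, 244, 159.8, 250.3 and 266 FPKM in NP libraries 1, 2, 3, 5 and 6 and at 220.1, 201, 175, 220.2 and 169.9 in AF libraries 8, 9, 10, 12 and 13. NP library 3 was the lowest of all, and the groups overlapped because of it. The difference was 0.22 (SE 0.15). Under MDL-800 the ranges were 269 to 325 in NP and 190.2 to 258 in AF, which did not overlap (as for 49.1% of all genes), and the difference was 0.42 (SE 0.11, limma adjusted p = 0.0059). Among deposited rows, 5 pseudogene models with 95.5% to 98.5% identity to stretches of Gng5 were listed at 1.68 FPKM or less in every library.

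Gng4 and Gng7, both known from the brain, were low in the disc and higher in NP. Gng4 stood at 7.59 to 12.4 FPKM in NP vehicle and 1.63 to 4.96 in AF vehicle, a difference of 1.24 (SE 0.24). Under MDL-800 its groups overlapped, because AF library 25 stood at 8.68 and the other 4 AF libraries at 4.34 or less, and the difference was 1.09 (SE 0.32, limma adjusted p = 0.012). Without AF MDL-800 library 25 it was 1.35. Gng7 stood at 5.88 to 7.44 FPKM in NP vehicle and 2.43 to 4.55 in AF vehicle. Its difference was 0.88 (SE 0.14) in vehicle and 0.94 (SE 0.16, limma adjusted p = 0.00043) under MDL-800.

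Gng10, Gng11 and Gng8 went the other way. Gng11, one of the few gamma subunits that carry a farnesyl rather than a geranylgeranyl lipid, stood at 8.85, 9.45, 5.40, 3.21 and 6.47 FPKM in libraries 1, 2, 3, 5 and 6 of NP vehicle. In libraries 8, 9, 10, 12 and 13 of AF vehicle it stood at 33.3, 33.6, 30.9, 35.7 and 36.4. The AF libraries lay close together, library 9 included, and the difference was -2.26 (SE 0.22). Under MDL-800 it was -2.47 (SE 0.26, limma adjusted p = 1.61e-05). Gng10 stood at 12.8 to 19.3 FPKM in NP vehicle and 34.6 to 44.4 in AF vehicle, a difference of -1.21 (SE 0.12), and under MDL-800 it was -1.43 (SE 0.11, limma adjusted p = 2.81e-06). An overlapping readthrough gene, Gm20503, was listed at 0 in all libraries.

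Gng8, the subunit of olfactory and vomeronasal neurons, stood at 0.675, 0, 0.314, 0.069 and 0.523 FPKM in libraries 1, 2, 3, 5 and 6 of NP vehicle. In libraries 8, 9, 10, 12 and 13 of AF vehicle it stood at 1.42, 0.946, 3.19, 3.65 and 3.69. A single fragment is worth 0.034 to 0.059 FPKM for Gng8, and every NP value lay under the lowest AF value. Under MDL-800 the ranges were 0.138 to 0.577 in NP and 2.05 to 6.11 in AF. The difference was -1.38 (SE 0.27) in vehicle and -1.71 (SE 0.21) under MDL-800, with no test, because the gene passed the filter through the compartment where it is high. Marker sums of several other cell types were also higher in AF, among them those of neutrophils, endothelium and bone given above. In NP vehicle and AF vehicle, 5 platelet and megakaryocyte markers summed to 22.8 to 133 and 367 to 851 FPKM. For 6 macrophage markers the sums were 65.0 to 379 and 1365 to 2567. By library the direction could differ: AF vehicle library 9 had the highest platelet sum of its group, 851, and its lowest Gng8, 0.946. None of those markers was at 0 throughout a group, and their part in the result was not tested.

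Gng3, a gamma subunit of neurons, reached 1 FPKM in 1 of 20 libraries. It stood at 0.128 FPKM or less in every NP library, with 0 in 3 of them, and a single fragment is worth 0.031 to 0.054. In libraries 8, 9, 10, 12 and 13 of AF vehicle it stood at 0.115, 0.154, 0.668, 0.105 and 0.0659, and in libraries 25, 27, 28, 29 and 30 of AF MDL-800 at 6.63, 0.176, 0, 0.308 and 0.237. Library 25 alone was high. The 6 neuron markers summed to 107 FPKM in that library and to 2.81 to 8.64 in the other AF libraries. There the neuronal tubulin Tubb3 was at 40.1, the synaptic protein Snap25 at 19.6 and the neurofilament Nefl at 18.7. Gng4 at 8.68, Gnao1 at 11.4 and Gnal at 4.19 were also highest of all AF libraries there, and so was Gng2, at 102. Bscl2, on the opposite strand, covers 398 of the exonic bases of Gng3 and stood at 31.0 FPKM in library 25, inside the range of the other AF MDL-800 libraries (23.4 to 34.5).

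MDL-800 against vehicle asks which transcripts changed with the drug in each compartment. None of the 9 members tested was called in NP or in AF. Over all 16383 genes limma called 41 in NP, or 0.25% (38 higher and 3 lower), and 0 in AF, or 0%. Before adjustment, a p under 0.05 was reached by 2311 genes in NP (14.1%) and 270 in AF (1.65%), of which 1 and 0 were members. The members ranged from -0.41 (Gng11) to 0.34 (Gng5) in NP, with a median of -0.09 against -0.03 for all genes. In AF they ranged from -0.39 (Gng13) to 0.35 (Gng8), with a median of 0.01 against 0.01.

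**Figure D5:**
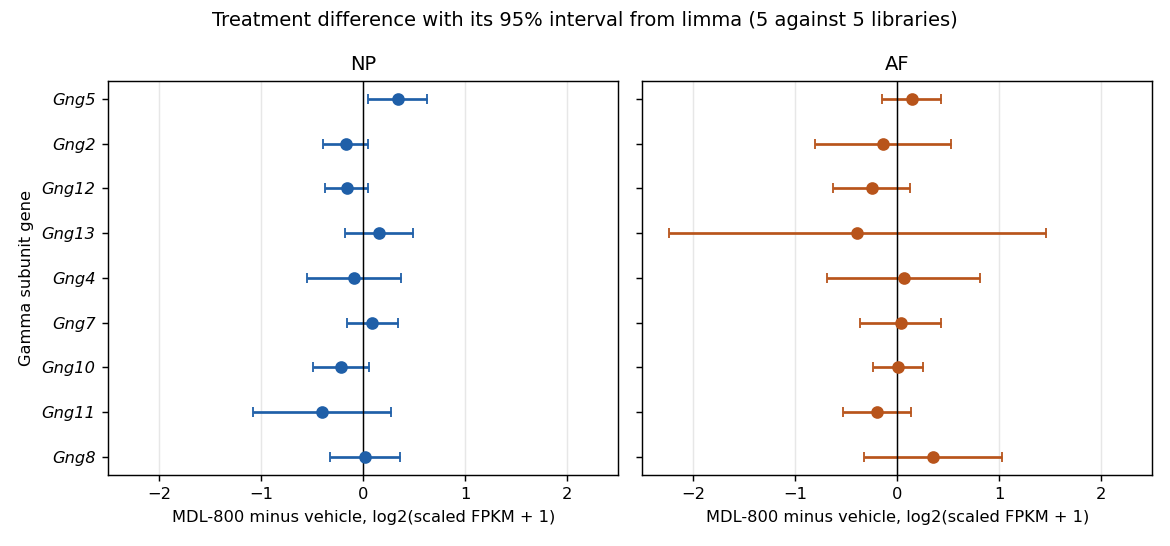
MDL-800 minus vehicle on the log2(scaled FPKM + 1) scale (horizontal axis) for 9 gamma subunits in NP (left) and AF (right), with 95% intervals from limma as bars. Only the interval of Gng5 in NP, 0.05 to 0.63, leaves out 0, before adjustment for the number of genes.

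Gng5 in NP had the smallest p of the members. It stood at 239, 244, 159.8, 250.3 and 266 FPKM in vehicle libraries 1, 2, 3, 5 and 6 and at 269, 283, 325, 282 and 291 in MDL-800 libraries 15, 18, 19, 20 and 22. Every MDL-800 library was above every vehicle library, which held for 4.5% of all genes in either direction. The difference of 0.34 (SE 0.13) had an unadjusted limma p of 0.025 and an adjusted p of 0.27, so it did not pass. Without NP vehicle library 3 it was 0.21. The share of Gng5 in the family was 31.3% ± 5.21 under vehicle and 38.4% ± 1.67 under MDL-800.

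Gng13 was not called with MDL-800 in either compartment. In NP it was 73.5 ± 18.6 FPKM (SD, n = 5) in vehicle and 80.3 ± 7.08 (SD, n = 5) under MDL-800, and the vehicle range of 55.6 to 102 held all 5 MDL-800 values. The difference was 0.16 (SE 0.15, 95% interval -0.17 to 0.49, limma adjusted p = 0.70). The exact permutation test, two-sided, gave p = 0.38, and the smallest p that 5 against 5 allows is 0.0079. In AF the difference was -0.39 (SE 0.83, 95% interval -2.24 to 1.45, limma adjusted p = 1, exact permutation p = 0.70), and it was 0.23 without AF vehicle library 9. That interval is wide, and a change inside it was not detectable in these AF libraries.

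The relation of level to GC content differed between the NP groups. The slope of log2 level on GC content, per 10 points of GC, was -0.28 to -0.0067 in NP vehicle. Libraries 1 and 2 were both at -0.28, and the rest of that group at -0.049 to -0.0067. Under MDL-800 the NP slope was 0.023 to 0.088, so the groups did not overlap. In AF they overlapped, at -0.24 to 0.10 in vehicle and -0.11 to 0.14 under MDL-800. Gng13 is the member richest in GC, at 58.7% against a median of 49.3% for all genes tested. With the GC trend of each library removed, its difference in NP was -0.12 in place of 0.16, and that of Gng8 was -0.16 in place of 0.02. Gng5, at 39.4% GC, had 0.44 in that setting and still did not pass (limma adjusted p = 0.18).

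The effect of MDL-800 in NP was set against that in AF with an interaction contrast over all 4 groups. No member passed (smallest unadjusted p = 0.19 for Gng10), nor did any of the 16383 genes with limma (0% called, and 3.73% at an unadjusted p under 0.05). For Gng13 the difference of effects was 0.55 (SE 0.89, 95% interval -1.32 to 2.42). It was -0.07 without AF vehicle library 9, the library whose removal turned its sign, and 1.04 without AF vehicle library 13.

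The partners of the gamma subunits are given next for NP against AF under MDL-800, by limma with the adjustment over all genes and against the 62.8% called overall. A gene is said to reach the filter through AF alone where 5 or more AF libraries but fewer than 5 NP libraries were at 1 FPKM, and through NP alone in the reverse case. The filter itself favours a difference for such genes, so they are given with no p, and their number stands beside each count. Of 5 beta subunits 4 were tested and 1 was called. Gnb5, the beta subunit that pairs with RGS proteins of the R7 group, was higher in NP by 0.54 (SE 0.12, adjusted p = 0.0020), at 9.27 to 11.4 FPKM against 5.29 to 7.91. Gnb1, the most abundant beta subunit beside Gnb2, stood at 179 to 199 in NP and 160.0 to 191 in AF, and its difference of 0.12 was not called, while with upper-quartile scaling it was called at 0.32. Gnb4 stood at 11.7 to 14.0 in NP and 11.2 to 17.2 in AF. Gnb2 varied widely within groups, from 97.2 to 313 FPKM in AF MDL-800 alone. Gnb3, which pairs with Gng13 in taste cells, stayed at 1.204 FPKM or less in all 20 libraries and was not tested. It stood at 0.452 to 0.900 in NP MDL-800 and 0.0285 to 0.690 in AF MDL-800, which overlapped. In vehicle it stood at 0.589 to 1.204 in NP and 0.0732 to 0.542 in AF, which did not.

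Of 16 alpha subunits 12 were tested, and 4 were called higher and 3 lower in NP, 1 of the 3 having reached the filter through AF alone. Gnai1, which inhibits adenylyl cyclase, was higher by 2.37 (SE 0.27, adjusted p = 2.62e-05), at 224 to 264 FPKM in NP and 25.5 to 79.7 in AF. Gna15, an alpha subunit of blood cells and the gene that reached the filter through AF alone, stood at 0.201 to 0.61 FPKM in NP and 2.21 to 8.57 in AF, a log2 difference of -2.14 (SE 0.26). Gnao1, the main alpha subunit of neurons, had a difference of -1.84 (SE 0.26, adjusted p = 0.00011). Gnal, the olfactory and striatal alpha subunit, stayed at 1.06 FPKM or less outside AF MDL-800 libraries 25 (4.19) and 29 (1.30).

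The other gamma genes were those of the retina. Gngt1, of rod photoreceptors, was listed at 0 in all 20 libraries. Gngt2, of cones and also farnesylated, stood at 0.159 to 1.63 FPKM in NP MDL-800 and 6.40 to 16.6 in AF MDL-800, a difference of -2.98 (SE 0.27). It reached the filter through AF alone.

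Genes that serve Gng13 in taste, olfactory and retinal cells were mostly low. Of 16 such genes 4 passed the filter, of which 1 was called higher and 2 lower. Gnat3, the alpha subunit of taste cells, was listed at 0 in all 10 NP libraries and reached 0.0867 FPKM in AF. The taste channel Trpm5 reached 0.0927 in NP and 0.161 in AF, and Pcp2 was listed at 0 throughout; both were named after their values were seen. Itpr3, the calcium release channel of taste cells and of many epithelia, was higher in NP by 2.33 (SE 0.23, adjusted p = 1.00e-05), at 157 to 201 FPKM against 21.03 to 61.2. Plcb2, the phospholipase of taste cells and of blood cells, stood at 0.275 to 2.26 against 6.99 to 24.1, a difference of -2.87 (SE 0.34), and reached the filter through AF alone.

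The next list holds targets of the beta-gamma pair and their relatives, and not every gene in it need be a target. Of 14 genes tested from it, 9 were called lower and 3 higher, and 5 of the 9 had reached the filter through AF alone. Pik3cg, the phosphoinositide 3-kinase of leukocytes, was 1 of these 5, at 0.138 to 2.21 FPKM in NP and 11.2 to 23.9 in AF, a difference of -3.16 (SE 0.30). The receptor kinase Grk2 had -2.05 (SE 0.17, adjusted p = 4.68e-06) and the Rac exchange factor Prex1 -1.95 (SE 0.20, adjusted p = 1.71e-05). The 3 called higher were Plcb1 at 1.19, Plcb4 at 0.72 and Arhgef11 at 0.62, which were named after their values were seen. Of the 4 potassium channel genes listed, also named after their values were seen, Kcnj3, Kcnj6 and Kcnj9 stayed at 1.85 FPKM or less in every library. Kcnj5, which reached the filter through AF alone, stood at 0.474 or less in NP and 1.04 to 3.48 in AF. The neutrophil, macrophage, endothelial and bone marker sums given above moved the same way as the lower genes, and their part was not tested.

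Of 7 adenylyl cyclases tested, 1 was called higher and 3 lower, of which 2 had reached the filter through AF alone. Adcy7, which reached it in both compartments, had -1.91 (SE 0.15, adjusted p = 3.45e-06). The other two were Adcy2, at 0.0635 to 0.227 FPKM in NP and 4.92 to 13.7 in AF (difference -3.08, SE 0.25), and Adcy4, at 0.0106 to 0.137 and 1.31 to 2.63 (difference -1.50, SE 0.13). The cyclase called higher was Adcy5, the isoform of striatum and heart, at 2.19 (SE 0.28, adjusted p = 5.71e-05), which was named after its values were seen. With quantile normalization 3 cyclases were called higher and 3 lower. Adcy5 stood at 67.0 to 90.4 FPKM in NP MDL-800 and 9.86 to 34.3 in AF MDL-800.

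Of 13 genes tested for RGS proteins, which switch alpha subunits off, and their anchors, 9 were called lower and 3 higher in NP. Of the 9, 4 had reached the filter through AF alone, and of the 3, 1 through NP alone. Rgs18, of platelets and other blood cells, had -3.65 (SE 0.28, adjusted p = 2.54e-06), Rgs2 -3.32 (SE 0.27, adjusted p = 3.44e-06) and Rgs3 -1.38 (SE 0.09, adjusted p = 1.78e-06). The 3 called higher, named after their values were seen, were Rgs9 at 2.52, its membrane anchor Rgs9bp at 2.37 and Rgs11 at 1.02. Rgs9 and Rgs11 are R7 proteins, which bind Gnb5 in place of a gamma subunit. The R7 genes Rgs6 and Rgs7, also named after their values were seen, did not reach the filter and were not higher in NP. Rgs6 stood at 0.0526 FPKM or less in NP MDL-800 and 0.199 to 0.773 in AF MDL-800. Rgs7 stood at 0.134 or less and 0.114 to 0.864. Rgs9, the gene that reached the filter through NP alone, stood at 4.64 to 10.8 FPKM in NP MDL-800 and 0.190 to 0.767 in AF MDL-800.

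The last lists hold chaperones of the beta-gamma pair, regulators of the alpha subunit and enzymes that attach and trim the lipid. Of 11 assembly and exchange genes 1 was called higher and 4 lower, among them Gpsm2 at -2.11 (SE 0.22, adjusted p = 1.61e-05), Gpsm3 at -1.57 (SE 0.30, adjusted p = 0.00086) and the chaperonin subunit Cct5 at -0.67 (SE 0.09, adjusted p = 9.16e-05). Of 7 prenylation genes 2 were called higher and 2 lower. Rce1, the protease that trims prenylated ends, had 0.58 (SE 0.10, adjusted p = 0.00033), the shared transferase subunit Fnta 0.46 (SE 0.10, adjusted p = 0.0019) and the protease Zmpste24 -0.32 (SE 0.09, adjusted p = 0.012). The small differences moved with the scaling: with upper-quartile scaling Zmpste24 at -0.13 and Pggt1b, the other prenylation gene called lower (named after its values were seen), at -0.11 were not called, and 3 prenylation genes were called higher, while of the assembly genes 3 were called higher and 3 lower. No gene of these lists passed the threshold between MDL-800 and vehicle in either compartment.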

How the data were processed

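The authors deposited 1 table of FPKM values, rounded to 2 decimals, for 20 libraries. Per the labels' protocols, tissue was dissected under a microscope, and stranded libraries were made from 50 ng of total RNA after ribosomal RNA depletion with 14 PCR cycles. STAR 2.7.11b and the build mm10 are named in the submitters' processing notes; the counting program, annotation, use of strand and treatment of multiple matches are not given in the sources used here.

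FPKM values were divided by a median-ratio factor per library and tested as log2(scaled FPKM + 1) with limma 3.58.1 (trend, two-sided, only the 2 groups compared, 4 for the interaction), in R 4.3.3, on the 16383 genes that reached 1 FPKM in 5 libraries. Adjusted p-values are Benjamini-Hochberg over all of them, and the threshold is 0.05. The code was tested on simulated data. Exact permutation tests used scipy 1.17.1. Promoters are from RefSeq, gene models from GENCODE M21, and copies of members were searched with BLAST 2.17.0 (matches of 150 bases or more at 90% identity or more).

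The members, gene lists, tests and alternatives were chosen with earlier results of these data known. Named genes were the members, Gngt1, Gngt2, the 5 beta subunits, Gnat3, Gnao1, Gnal and genes overlapping a member or nearest to Gng13. Also named were the 3 smallest p among called genes of each list, and the 5 genes most like Gng13. Of the overlapping genes, Gm25271 (Gng4), Gm3828 (Gng7), and 4930597O21Rik and Gm15644 (both Gng12) are named only here, without levels. Gm48283 (Gng2) and AC129217.1 (Gng3) had no row among the deposited values. Markers, Trpm5, Pcp2, the Kcnj genes, Pggt1b and those marked so were named after their values were seen. Readthrough and pseudogene copies make Gng10 and Gng5 less certain.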

Additional observations from a re-analysis of the deposited data

Results flagged for a closer look

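In each group of 5, the highest and lowest library of each member were checked with Dixon's test (critical value 0.71). Of 40 groups checked 4 held a library far from the others, and chance alone marks about 1 in 20. Gng13 was at 53.7 FPKM in AF vehicle library 9, where the next highest library of the group was at 15.8 and the NP marker sum was also the highest of AF. Gng3 was at 6.63 FPKM in AF MDL-800 library 25, the library with the highest neuron marker sum. Gng3 was also at 0.668 FPKM in AF vehicle library 10, where the other 4 of the group were at 0.154 or less. Gng5 was at 159.8 FPKM in NP vehicle library 3, below the other 4 of its group at 239 to 266.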

How the results depend on the processing

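Each result was recomputed with a pseudocount of 0.1 or 0.5, FPKM as deposited, quantile or upper-quartile scaling, no filter or 1 FPKM in at least 10 libraries, the GC trend removed, all 4 groups in the fit, robust variance estimates, and without each library. The members whose groups did not overlap in vehicle numbered 7 with quantile normalization, the stricter filter or the GC trend removed, 8 with the other planned settings, and 8 to 9 without single libraries. Over all genes, groups did not overlap for 6719 of 16383 in the main setting (41%) and for 6628 with FPKM as deposited. Under MDL-800 the 7 members other than Gng8 and Gng13 were called in every planned setting. Gng8 is left out of this count because it reached the filter through AF alone. Over all genes 10290 were called in the main setting (62.8%) and 10122 with FPKM as deposited. No member was called with the drug in any setting. For Gng13 with MDL-800, the NP difference reversed to -0.12 with the GC trend removed (0.06 to 0.28 without single libraries), and the AF difference ran from -0.89 to 0.23 without single libraries. Without AF vehicle library 9 and AF MDL-800 library 25 together, a setting chosen after seeing the data, it was 0.15, and those of Gng4 and Gng10 turned to -0.10 and -0.0095. Other reversals were of differences near 0: Gng8 in NP to -0.16 (GC trend removed), and Gng10 in AF to -0.014 (quantile) and -0.0053 (upper quartile). Without single libraries, differences in AF ran from -0.044 to 0.063 for Gng10, -0.36 to 0.018 for Gng2, -0.20 to 0.22 for Gng4 and -0.048 to 0.13 for Gng7, and in NP from -0.21 to 0.061 for Gng4 and -0.070 to 0.12 for Gng8. The interaction of Gng13 ran from -0.072 to 1.04. Causes were not tested. Between NP and AF, the vehicle difference of Gng8 was -2.89 with a pseudocount of 0.1, and that of Gng7 was 1.32 with quantile normalization. Column names of both compartments share a number. Deviations of same-numbered libraries had correlations of -0.18 to 0.29 in vehicle (5 pairs) and -0.18 to 0.17 under MDL-800 (3 pairs). Those of different-numbered libraries were -0.37 to 0.33 and -0.17 to 0.23. So few pairs across different tissues cannot show whether a shared number marks an animal. The main tests took the libraries as unpaired. With a replicate block by that number, chosen after seeing the data, the 7 members other than Gng8 and Gng13 were again called between NP and AF under MDL-800.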
